A study of Mus musculus with 6 samples.

Results

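Usher syndrome, an inherited loss of hearing and vision, arises from mutations in a set of genes whose proteins work together in the hair bundle. Here 7 such genes were followed as mRNA, by their listed symbols: Myo7a, Ush1c and Ush1g, which encode the motor and scaffold proteins, and Adgrv1, Whrn, Pdzd7 and Clrn1. The symbols were mapped to Ensembl identifiers, and all 7 of 7 were found among the 39179 genes in the count files. The data are RNA-seq of sensory epithelium, the sheet of hair cells and supporting cells, dissected from the cochlea (the organ of hearing) and the vestibule (the organ of balance) of wild-type C57Bl/6J mice at postnatal day 0, males and females pooled. Each tissue has 3 libraries, made from 450 ng of RNA each, and no group carries a mutation or treatment. The dissected tissue came from 20 ears of 10 mice, and the sources do not say whether the 3 libraries of a tissue came from separate pools, so p-values measure the spread between these libraries, which may be technical.

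The hair bundle is a staircase of actin-filled stereocilia on top of each hair cell, held together by extracellular links. Tip links pull open the transduction channels, and their upper end is anchored inside the stereocilium by a complex of harmonin (encoded by Ush1c), sans (Ush1g) and the motor myosin VIIa (Myo7a). Ankle links join the bases of stereocilia while the bundle matures, through the very large adhesion receptor encoded by Adgrv1, which is held from inside by the PDZ scaffolds whirlin (Whrn) and PDZD7. Clarin-1 (Clrn1) is a small membrane-spanning protein that hair cells need for bundle upkeep.

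Among the 7 genes, Ush1c and Whrn were higher in the vestibule, 2 of 7, and 0 of 7 were higher in the cochlea. Of all 14723 genes tested, 15.8% were called higher in the vestibule and 11.6% higher in the cochlea. These counts of 2325 and 1711 genes depended on single libraries: they were 1342 and 925 without vestibule replicate 2, the first was 1522 without vestibule replicate 1, and the second was 1035 without cochlea replicate 2. Of the 7 genes, 4 were called higher in the vestibule without cochlea replicate 3, where 2694 of 14504 genes tested were. Without vestibule replicate 3, 3 of the 7 were, as were 1938 of 14283 genes tested. When any of the other 4 libraries was left out, 1 of the 7 was called. Mean Ush1c mRNA was 5.64 times as high in the vestibule as in the cochlea, and mean Whrn mRNA 2.98 times as high. The values for Myo7a and Pdzd7 lay in the same direction without passing the threshold, and those of Ush1g, Adgrv1 and Clrn1 differed by less than the spread between libraries. The test was the quasi-likelihood F test of edgeR, fitted to every gene that passed the filter. Its p-values were adjusted by the Benjamini-Hochberg method and called at a false discovery rate of 0.05. Fold changes are log2 values of vestibule minus cochlea after TMM scaling (which equalises libraries on the bulk of genes), so that a positive value is higher in the vestibule. CPM is a gene's count scaled to the total on genes of its library, and 1 CPM stood for 24.5 to 33.7 counts.

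**Figure D1:**
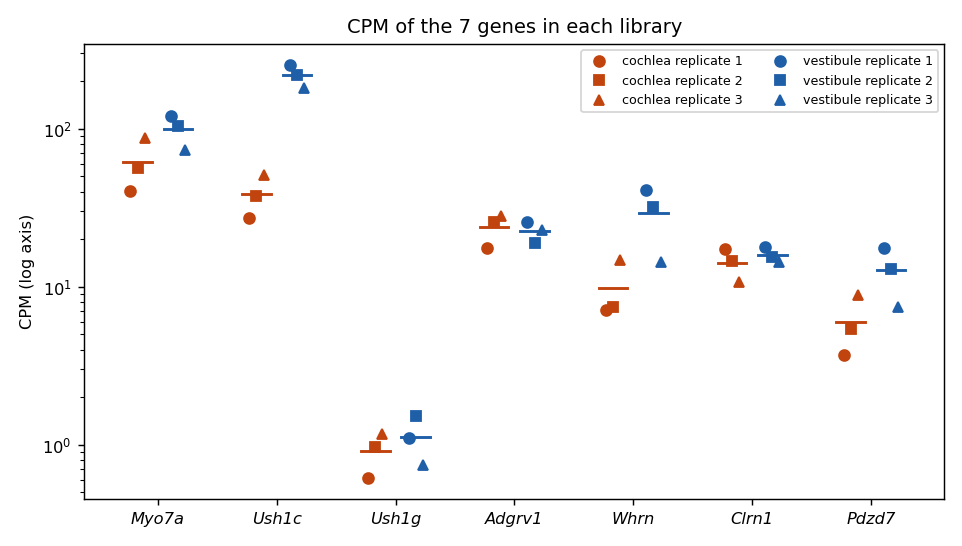
CPM (log axis) of the 7 genes in the 3 cochlear (red-brown) and 3 vestibular (blue) libraries, with 1 symbol per library and a line at each tissue mean. The Ush1c libraries of the tissues lie far apart, from 27.2 to 50.6 CPM in the cochlea and from 180 to 254 in the vestibule, while the libraries of the other genes overlap.

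The gene with the largest difference was Ush1c, and the region just before its annotated start is shown with those of Whrn, the other called gene, and of Myo7a, whose protein binds harmonin. The stretches lie at chr7:46238504-46238740 (Ush1c), chr4:63495992-63496241 (Whrn) and chr7:98119525-98119743 (Myo7a), all on the minus strand of GRCm38.p6, and are taken from RefSeq promoter windows, trimmed to the bases before any annotated transcript. Capitals mark matches on either strand to the GC box GGGCGG and to the X-box half-site GTTGCC, which is bound by RFX factors.
Ush1c: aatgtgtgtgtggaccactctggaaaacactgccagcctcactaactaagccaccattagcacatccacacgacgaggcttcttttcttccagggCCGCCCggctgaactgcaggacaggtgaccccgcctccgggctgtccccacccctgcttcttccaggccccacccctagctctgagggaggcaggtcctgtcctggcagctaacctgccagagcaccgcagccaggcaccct
Whrn: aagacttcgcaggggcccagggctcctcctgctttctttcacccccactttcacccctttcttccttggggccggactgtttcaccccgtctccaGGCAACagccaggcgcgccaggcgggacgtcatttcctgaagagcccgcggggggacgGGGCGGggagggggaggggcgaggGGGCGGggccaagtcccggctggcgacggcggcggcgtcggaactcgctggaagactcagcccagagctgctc
Myo7a: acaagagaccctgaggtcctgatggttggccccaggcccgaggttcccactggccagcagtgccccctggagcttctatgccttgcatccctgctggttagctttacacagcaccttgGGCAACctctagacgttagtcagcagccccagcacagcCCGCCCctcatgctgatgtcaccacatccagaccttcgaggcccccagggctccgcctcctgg
Promoter windows were found for 6 of the 7 genes, all but Ush1g. In the 250 bases before the start, the GC box was found in 3 of the 6 genes (Myo7a, Ush1c and Whrn), against 32.7% of all 32851 windows, and the X-box half-site in 2 (Myo7a and Whrn), against 10.4%. The E-box CAGCTG, a sequence that basic helix-loop-helix factors can bind, was found in 1 of the 6, Pdzd7, against 13.0% of windows. The marked matches do not overlap each other, and a match is a description of the letters.

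Ush1c encodes harmonin, the scaffold with several PDZ domains that ties the tip link to the actin core. The gene (ENSMUSG00000030838) spans bases 46195350 to 46238503 of chromosome 7 (GRCm38 as annotated in GENCODE vM21). Its CPM was 27.2, 37.7 and 50.6 in cochlea replicates 1, 2 and 3 and 254, 217 and 180 in the vestibular ones. All 3 vestibular libraries were above all 3 cochlear ones. Groups were separated in this direction for 27.5% of all genes tested, and among the 7 genes for Ush1c alone. The log2 fold change was 2.37 (standard error, SE, 0.23, adjusted p = 0.000116), and it ranged from 2.16 to 2.59 when any 1 library was dropped. Its spread was 1.86 times from lowest to highest library in the cochlea and 1.41 times in the vestibule.

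Myo7a encodes the motor that binds harmonin and sans. It lies on the same chromosome as Ush1c, from 98051060 to 98119524 (ENSMUSG00000030761). Its CPM was 40.1, 56.5 and 87.5 in the cochlea, against 120, 104 and 73.7 in the vestibule. Cochlea replicate 3 was above vestibule replicate 3, so the tissues overlapped. The log2 fold change of 0.57 (SE 0.27, 95% interval -0.05 to 1.18) did not pass the threshold (adjusted p = 0.157). It passed without cochlea replicate 3, where the log2 fold change was 0.88 (adjusted p = 0.0203).

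Some pigment cells use myosin VIIa to move melanosomes, and whether the melanocytes of these tissues do was not tested. Melanocyte markers differed between the tissues. Pmel, Tyr and Dct, markers of melanocytes, were higher in the vestibule. Tyrp1 and Mlana were too, but these 2 reached 1 CPM in vestibular libraries only and so passed the filter through the tissue where they are high. The summed level of the 5 markers ran from 31.0 to 60.0 CPM in the cochlea and from 272 to 336 in the vestibule. The mean sum was 6.06 times as high in the vestibule, and its part in the Myo7a values was not tested.

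Ush1g encodes sans, an ankyrin-repeat scaffold. It is a compact gene on chromosome 11 (115315192 to 115322041, ENSMUSG00000045288) with 3 exons. It was the lowest of the 7, with counts of 15, 28 and 34 in the cochlea, against 37, 39 and 19 in the vestibule. These are 0.613, 0.972 and 1.16 CPM and 1.10, 1.52 and 0.746 CPM, and the tissues overlapped. The log2 fold change was 0.15 (SE 0.35, 95% interval -0.64 to 0.95, adjusted p = 0.782). Ush1g entered the test because 3 libraries, from both tissues, reached 1 CPM.

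Whrn encodes whirlin, which serves at the ankle links and, carried by myosin XVa, at stereocilia tips. The gene lies on chromosome 4 from 63414910 to 63495991 (ENSMUSG00000039137). Its CPM was 7.15, 7.46 and 14.9 in the cochlea, against 41.2, 32.1 and 14.4 in the vestibule. Vestibule replicates 1 and 2 stood above every cochlear library, while vestibule replicate 3 lay just under cochlea replicate 3. The log2 fold change was 1.44 (SE 0.38, adjusted p = 0.0234). This call was lost without any of 4 libraries. Without cochlea replicate 1 the log2 fold change was 1.25 (adjusted p = 0.0826), and without cochlea replicate 2 it was 1.29 (adjusted p = 0.106). Without vestibule replicate 1 it was 1.17 (adjusted p = 0.0799), and without vestibule replicate 2 it was 1.38 (adjusted p = 0.0689). The call was also lost with the replicate number as a block in the fit (1.43, adjusted p = 0.0987).

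Pdzd7 encodes a PDZ scaffold of the ankle links that is related to both whirlin and harmonin. It lies on chromosome 19 from 45026906 to 45045717 (ENSMUSG00000074818). Its CPM was 3.68, 5.42 and 8.90 in the cochlea, against 17.7, 12.9 and 7.46 in the vestibule, and only vestibule replicate 3 was within the cochlear range. The log2 fold change of 0.95 (SE 0.36, 95% interval 0.12 to 1.77) did not pass the adjusted threshold (adjusted p = 0.0882). It did under DESeq2 (0.93, adjusted p = 0.0313), under edgeR's exact test (adjusted p = 0.0483), without cochlea replicate 3 (1.32, adjusted p = 0.0235) and without vestibule replicate 3 (1.21, adjusted p = 0.0388). The annotation places 206 bases of Pdzd7 exons (5.08%) opposite exons of Lzts2, a gene with up to 4983 counts in a library, and the strand setting of the counting is not given in the sources used here.

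Adgrv1, the adhesion receptor that forms the extracellular ankle link, showed no such difference. It is the largest of the 7 genes, spanning 538087 bases of chromosome 13 (81095068 to 81633154, ENSMUSG00000069170). Its CPM was 17.6, 25.7 and 27.9 in the cochlea, against 25.6, 18.9 and 22.8 in the vestibule. Every vestibular library fell within the cochlear range. The log2 fold change was -0.20 (SE 0.20, adjusted p = 0.502), and its 95% interval from -0.67 to 0.26 lay below that of Whrn (0.57 to 2.31) and overlapped that of Pdzd7.

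Clrn1 (chromosome 3, 58844028 to 58885340, ENSMUSG00000043850) also showed no difference beyond the spread between libraries. Its CPM was 17.4, 14.5 and 10.6 in the cochlea, against 17.8, 15.3 and 14.4 in the vestibule. The tissues overlapped, and the log2 fold change was 0.03 (SE 0.20, 95% interval -0.42 to 0.49, adjusted p = 0.919).

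**Figure D2:**
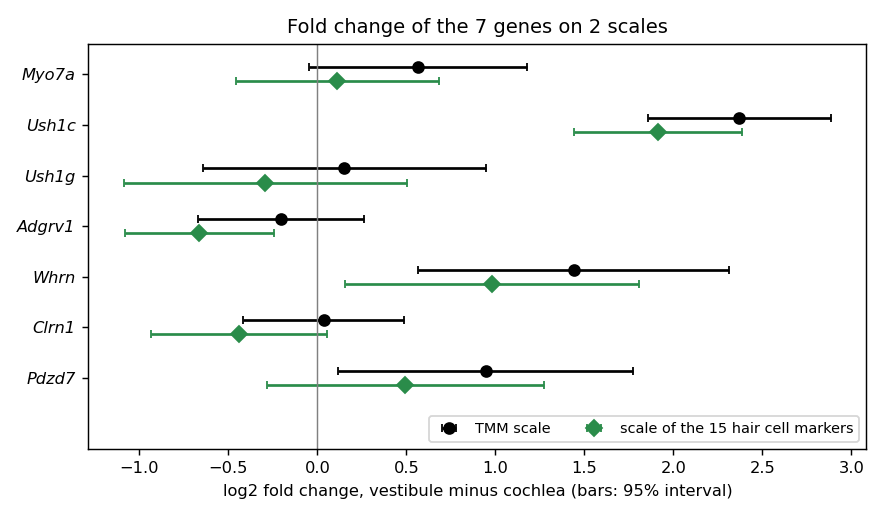
Log2 fold change (vestibule minus cochlea) of each gene with its 95% interval, after TMM scaling (black) and after scaling each library to its 15 hair cell markers (green). Ush1c lies at 2.37 and 1.91 and is far from 0 on both scales, Whrn at 1.44 and 0.98, and Adgrv1 at -0.20 and -0.66.

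Because the samples are dissected tissue, a lower level can mean fewer hair cells or less RNA per cell, and these cannot be told apart in bulk samples. The hair cell markers were therefore given beside the 7 genes. All 15 markers were detected and tested, and 8 were higher in the vestibule and 2 in the cochlea, with a median log2 fold change of 0.52. The shares over all genes tested were 15.8% and 11.6%. Without cochlea replicate 1, 5 markers were higher in the vestibule. Their summed level ran from 853 to 922 CPM in the cochlea and from 1254 to 1519 in the vestibule. The markers did not move as 1 block. Gfi1 and Pou4f3, transcription factors of hair cell survival, had log2 fold changes of 2.19 and 0.65. Slc17a8, a vesicular glutamate transporter, and Otof, which drives vesicle release at the hair cell synapse, had 3.68 and 2.08. The calcium buffers Pvalb and Calb2 had -2.39 and -2.08, and Lhx3, Rbm24, Tmc1 and Ptprq had 0.99, 0.52, 1.03 and 1.06, all past the threshold (adjusted p from 5.79e-06 to 0.0161 over these 10 genes). Of the 5 markers not called, 4 had negative values, -0.35 for Myo6, -0.44 for Barhl1, -0.51 for Lhfpl5 and -0.07 for Atoh1, and Atp2b2 had 0.30. The supporting cell markers went the other way: 4 of 6 were higher in the cochlea and 0 in the vestibule, and their sum ran from 1182 to 1302 CPM in the cochlea and from 461 to 509 in the vestibule.

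Other cells were present in both tissues. Of 4 Schwann cell markers, 2 were higher in the vestibule, and their sum ran from 146 to 318 CPM in the cochlea and from 498 to 856 in the vestibule. Of 5 neuronal markers, 2 were higher in the cochlea, and the sums overlapped (151 to 493 and 101 to 309 CPM). Of 5 mesenchyme markers, 2 were higher in the vestibule and 1 in the cochlea, with sums of 1989 to 2369 and 2813 to 3333 CPM. Skeletal muscle markers, of which 3 of 5 were tested and 0 called, summed to 231 CPM in cochlea replicate 3 and to between 2.90 and 21.9 CPM in the other libraries. The part of these cells in the results of the 7 genes was not tested.

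Against the mean log2 level of the 15 hair cell markers in the same library, Ush1c was still separated between the tissues. Its log2 level over the markers was -0.0040, 0.32 and 0.78 in the cochlea, against 2.47, 2.38 and 2.06 in the vestibule, a difference of 1.94. That of Adgrv1 was -0.63, -0.23 and -0.08 in the cochlea, against -0.84, -1.14 and -0.92 in the vestibule, so that Adgrv1 lay lower in each vestibular library, by 0.65 on average. On this scale 10.2% of all genes tested were separated with the vestibule above and 53.4% with the cochlea above, so the separation of Adgrv1 is that of most genes. The other 5 genes overlapped, with differences of 0.94 for Whrn, 0.50 for Pdzd7, 0.15 for Myo7a, -0.31 for Ush1g and -0.41 for Clrn1. Single libraries moved these 5: with 1 library left out, Whrn ranged from 0.66 (without vestibule replicate 1) to 1.38 (without vestibule replicate 3), Pdzd7 from 0.24 (without cochlea replicate 1) to 0.83 (without vestibule replicate 3), and Myo7a from -0.08 (without cochlea replicate 1) to 0.43 (without cochlea replicate 3). Ush1g ranged from -0.59 (without vestibule replicate 2) to -0.06 (without vestibule replicate 3), and Clrn1 from -0.61 (without cochlea replicate 3) to -0.20 (without cochlea replicate 1). With 3 libraries against 3 an exact two-sided permutation test cannot give less than 0.1, and Ush1c and Adgrv1 both gave 0.1 (0.35 after Benjamini-Hochberg adjustment over the 7 genes).

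Fitted over all genes with the libraries scaled to these markers, Ush1c (log2 fold change 1.91, adjusted p = 7.87e-05) and Whrn (0.98, adjusted p = 0.0442) were higher in the vestibule, 2 of 7, where 9.16% of all genes were. Adgrv1 was lower in the vestibule, 1 of 7 (-0.66, adjusted p = 0.0137), where 46.5% of all genes were, so a count of 1 in 7 is not above the background. The scale shifts the median of all genes to a log2 fold change of -0.46. The choice of markers moved these values: with Gfi1, Barhl1, Otof and Rbm24 alone the difference in mean log2 level over the markers was 1.30 for Ush1c, 0.30 for Whrn and -1.29 for Adgrv1, and with Myo6 and Pou4f3 alone it was 2.26, 1.26 and -0.33. With all 15 markers that of Whrn was 0.94. The marker set turned the direction of 3 genes: with the first set Myo7a was -0.49 and Pdzd7 -0.14, and with the second Ush1g was 0.0095.

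Levels of different genes were compared on the deposited log2 RPKM, which divides by gene length. In the vestibule the order was Ush1c (56.6 RPKM ± 9.67, SD, n = 3), Myo7a (11.7 ± 2.77), Clrn1 (4.11 ± 0.455), Whrn (3.99 ± 1.86), Pdzd7 (3.11 ± 1.25), Adgrv1 (0.908 ± 0.137) and Ush1g (0.343 ± 0.117). Ush1c stood 2.29 above Myo7a on the log2 RPKM scale, while Clrn1, Whrn and Pdzd7 differed by less than the sum of neighbouring SDs. In the cochlea Ush1c (10.0 RPKM ± 3.05) and Myo7a (7.21 ± 2.83) were not separated. Clrn1 followed with 3.69 ± 0.882, at a distance from Myo7a (0.92 on the log2 scale) about equal to the sum of their SDs. Pdzd7 (1.47 ± 0.651), Whrn (1.34 ± 0.595) and Adgrv1 (0.959 ± 0.218) came next, and neither the step from Pdzd7 to Whrn nor that from Whrn to Adgrv1 exceeded the sum of the SDs. Clrn1 above Pdzd7 and Adgrv1 above Ush1g (0.28 ± 0.0847), the lowest again, were separated by more than that sum. Over the genes of the matrix, Ush1c thus moved from the 63.5th percentile of the cochlea to the 93.9th of the vestibule, and Ush1g lay at the 3.87th and the 2.74th.

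**Figure D3:**
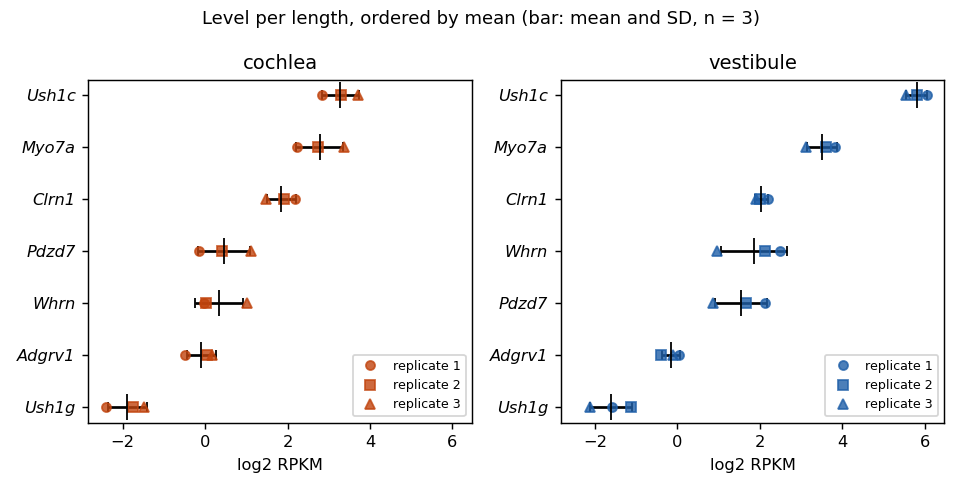
Log2 RPKM of the 7 genes in the cochlea (left) and the vestibule (right), ordered by mean level, with 1 symbol per library and bars for the mean and SD (n = 3). Ush1c and Myo7a lie side by side in the cochlea at 3.28 and 2.78, and 2.29 apart in the vestibule.

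Ratios between the 7 mRNAs of a library do not depend on its scaling. The log2 ratio of Myo7a to Ush1c was 0.56, 0.59 and 0.79 in the cochlear libraries and -1.08, -1.06 and -1.29 in the vestibular ones. The ratio of Adgrv1 to Whrn, the receptor to its scaffold, fell by 1.59 on the log2 scale from the cochlea to the vestibule, and that of Adgrv1 to Pdzd7 by 1.15. These 3 ratios did not overlap between the tissues, and 12 of the 21 pairs in all did not, among them all 6 with Ush1c. Over all pairs of the 14723 genes tested, 48.0% did not overlap, so separated ratios are not particular to the 7 genes. The ratio of Whrn to Pdzd7, the pair of ankle-link scaffolds, was 0.44 higher in the vestibule and overlapped. The ratios of Myo7a to Ush1c, Adgrv1 to Whrn and Adgrv1 to Pdzd7 each gave 0.1, the smallest p that the exact permutation test of 3 against 3 libraries allows (0.175 after adjustment over the 21 pairs compared).

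Within a tissue, the libraries differed in the same direction for most of the 7 genes. In the cochlea, replicate 3 was the highest and replicate 1 the lowest for 6 of 7 genes, and Clrn1 had the opposite order. Whrn and Pdzd7 were 2.08 and 2.42 times as high in the highest cochlear library as in the lowest, and 2.87 and 2.37 times in the vestibule. In the vestibule, replicate 3 was lowest for 6 of 7 genes, and replicate 2 for Adgrv1. The share of all genes with these orders was not counted, so they are not shown to be particular to the 7 genes. The mean of the 15 hair cell markers lay from -0.11 to 0.12 around the cochlear mean on the log2 scale and from -0.08 to 0.06 around the vestibular one, but a mean of 15 genes is not comparable with the spread of single genes. Single markers moved in opposite directions: in cochlea replicates 1, 2 and 3, Pvalb was 88.9, 72.6 and 30.4 CPM and Calb2 115, 92.8 and 41.7 CPM, while Lhx3 was 13.0, 13.4 and 19.3 CPM. The 5 neuronal markers summed to 493, 434 and 151 CPM in the same libraries, in the order of Pvalb and Calb2, and their part in the levels of these markers was not tested. The share of listed read pairs on no annotated feature, given here as a sign of library composition, was 4.30%, 4.73% and 7.45% in the cochlear libraries and 6.85%, 6.998% and 5.77% in the vestibular ones. It was highest in the cochlea in replicate 3 and lowest in the vestibule in replicate 3. With this share as a covariate, an alternative chosen after seeing the data, Ush1c (log2 fold change 2.17, adjusted p = 2.53e-05) and Whrn (1.02, adjusted p = 0.0228) were called and the fold changes of Myo7a and Pdzd7 were 0.29 and 0.58 (adjusted p = 0.238 and 0.149).

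**Figure D4:**
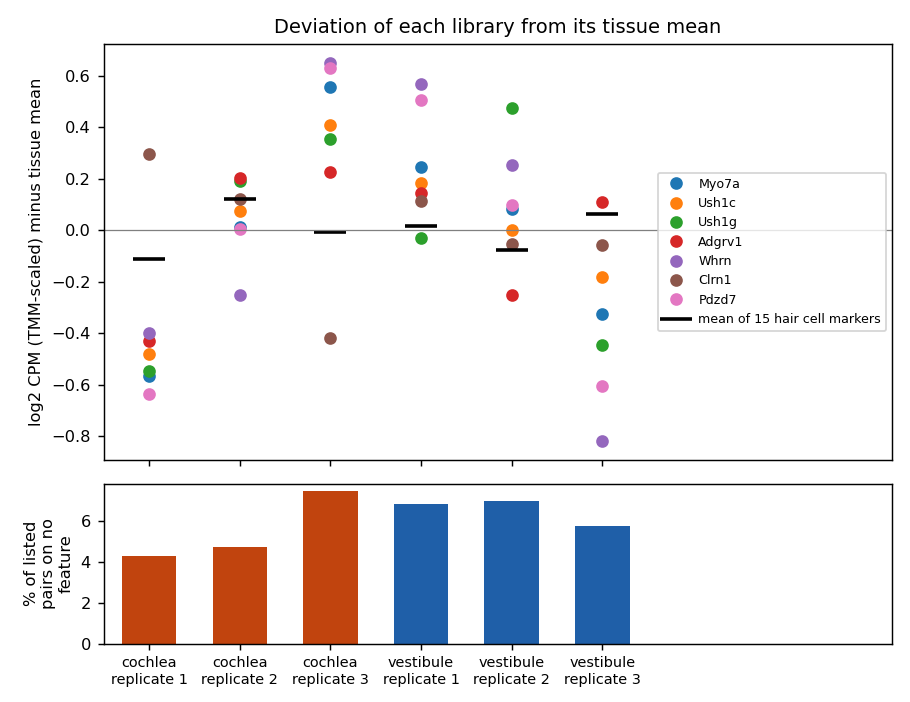
Upper panel: log2 CPM (TMM-scaled) of each gene in each library minus the mean of its tissue, with the mean of 15 hair cell markers as black dashes. Lower panel: percent of listed read pairs on no annotated feature. Whrn ranges from -0.82 in vestibule replicate 3 to 0.65 in cochlea replicate 3. The dashes average 15 genes, so their range is not comparable with that of a single gene.

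Patterns over the 6 libraries were compared by the root mean square difference of log2 CPM after centring each gene. Among the 7 genes, the closest pairs were Myo7a with Pdzd7 (0.24) and Whrn with Pdzd7 (0.28), and the farthest was Ush1c with Adgrv1 (1.31). Genes outside the list, which are far more numerous, were closer still. With rank 1 for the nearest gene, Pdzd7 ranked 423 for Myo7a and 83 for Whrn, and Adgrv1 ranked 8981 for Ush1c. Over the 14723 genes tested, the nearest to Myo7a were Amotl1 (0.07), Ptpru (0.08) and Ranbp10 (0.09). The nearest to Ush1c were Exoc3l4 (0.10), Tmem88b (0.12) and Nlrp3 (0.12). Of these, Tmem88b and Nlrp3 were low in the cochlea, with means of 0.419 and 0.204 CPM, against 2.20 and 1.23 in the vestibule. Nlrp3 passed the filter through the vestibule alone. Those nearest to Whrn were Greb1l (0.11), Dnah2 (0.14) and Kif28 (0.14), and to Pdzd7 they were Mical3 (0.08), Ccdc157 (0.09) and Prpf39 (0.10). Adgrv1 was nearest to Pde3a (0.08), Tmem132a (0.08) and Acss3 (0.09), Clrn1 to Ovol2 (0.05), Cenpk (0.05) and Brdt (0.06), and Ush1g to Tmem86b (0.11), Myh7b (0.12) and 1810021B22Rik (0.15). The likeness rests on 6 libraries that share 2 tissues and is a description.

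The 7 genes were set beside 14 genes whose proteins bind them or share their place in the bundle. Of these 14, 5 were higher in the vestibule, 2 were higher in the cochlea and 7 were not called. Of all genes tested, 15.8% were higher in the vestibule and 11.6% in the cochlea. The median log2 fold change of the 14 was 0.48 (0.57 for the 7 genes and 0.00 for all genes tested). The 2 tip-link cadherins were not called: Cdh23, at 38.6 CPM ± 12.8 (cochlea; SD, n = 3) and 43.8 ± 15.6 (vestibule), and Pcdh15, at 25.0 ± 3.96 and 22.5 ± 8.05. Their log2 fold changes had 95% intervals from -0.64 to 0.73 and from -0.83 to 0.26, below the interval of 1.86 to 2.89 of Ush1c. Myo15a, the motor that carries whirlin to stereocilia tips, rose by 2.07 on the log2 scale (SE 0.49, adjusted p = 0.0142), its level being 9.83 CPM ± 5.95 (cochlea) and 45.6 ± 27.9 (vestibule). Eps8, the actin regulator that travels with it, had 1.18 (adjusted p = 0.000377), and the actin-bundling protein Espn had 1.37 (adjusted p = 0.000736). Gnai3 and Gpsm2, members of the same tip complex, did not share this direction. Gnai3 was higher in the cochlea (-0.51, adjusted p = 0.0434) and Gpsm2 was not called, at -0.17 with a 95% interval from -0.43 to 0.09. Of the proteins that bind myosin VIIa, Plekhb1 (0.99, adjusted p = 0.00312) and Twf2 (0.55, adjusted p = 0.0163) were higher in the vestibule, and Vezt, a junction protein also found at ankle links, was not called (0.19). The other uncalled partners had positive values: 0.96 for Cacna1d (adjusted p = 0.0538), a calcium channel subunit of hair cells, 0.65 for Clrn2, a relative of clarin-1, and 0.42 for Mpp1, a membrane scaffold that binds whirlin. Clrn2 entered the test through the vestibule, where all 3 libraries reached 1 CPM against 1 in the cochlea. Cib2, a calcium-binding protein of the transduction machinery, was higher in the cochlea (-0.83, adjusted p = 0.0204). The partner counts depended on single libraries: 3 partners were higher in the vestibule without cochlea replicate 2, and 0 were higher in the cochlea without cochlea replicate 1 or 2 or vestibule replicate 1 or 2.

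**Figure D5:**
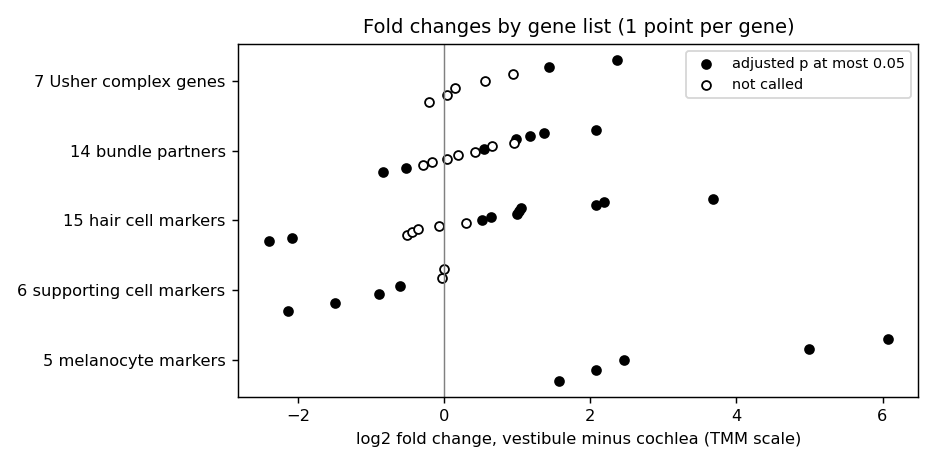
Log2 fold changes (vestibule minus cochlea, TMM scale) of the 7 Usher complex genes, their 14 bundle partners and the markers of hair cells, supporting cells and melanocytes, with 1 point per gene, filled where the adjusted p is at most 0.05. The supporting cell markers lie between -2.14 and 0.00 and the melanocyte markers at 1.57 or more.

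Microvilli of gut and kidney use a related complex, in which harmonin is shared and Myo7b, Anks4b, Cdhr2 and Cdhr5 take the places of myosin VIIa, sans and the cadherins. Of these 4 genes, 0 passed the filter of 1 CPM in 3 libraries. Together they summed to between 0.491 and 0.694 CPM in the cochlea and between 0.713 and 1.05 CPM in the vestibule, against 180 CPM or more of Ush1c in each vestibular library. The 4 genes did not share a direction at these low levels. Myo7b was at 0 CPM in all 3 cochlear libraries and at 0.535, 0.701 and 0.550 CPM in the vestibular ones, and Cdhr5 also lay above the cochlear range in every vestibular library, while Anks4b and Cdhr2 lay below it in every one.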

How the data were processed

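mRNA was measured in 3 cochlear and 3 vestibular libraries, grouped by the tissue in their titles. The authors used tophat2 for alignment to GRCm38 and htseq-count for counting, and deposited whole counts per gene. The submitters' processing notes name TopHat2 2.1.0, SAMtools 0.1.18, HTSeq 0.5.4p5 and edgeR 3.4.2. The authors also deposited log2 RPKM for 14722 genes, in which the length recovered from the counts varied by at most 0.124% (CV over libraries, 11426 well-counted genes). The 5 summary lines of each count file, 18.5% to 20.6% of all listed counts, stayed out of library sizes and tests. Counts on genes were 24464483 to 33664793 per library, which limits precision for low genes.

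The test used edgeR 4.0.16 (R 4.3.3) on genes that reached 1 CPM in at least 3 libraries (glmQLFTest, TMM, Benjamini-Hochberg, FDR 0.05, no replicate block), as the study names edgeR and this filter. Standard errors are the fold change divided by the square root of F, and intervals use the moderated degrees of freedom. The test was checked on simulated counts. Log levels for ratios and likeness used a prior count of 0.5. Figures used matplotlib 3.10.9.

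The shares of genes on the marker scale, and of pairs of genes, whose libraries do not overlap were added after seeing the data. The members and gene lists were chosen with earlier results of these data known. All 7 genes are named, genes of the partner and hair cell lists by their call, and the 3 genes nearest to each member. The 7 partners that were not called, and the microvillar genes, were given values after these had been seen. Gene positions are from GENCODE vM21 (GRCm38) and promoter windows from RefSeq (GRCm38.p6). Alternatives were other scalings, filters, tests (DESeq2 1.42.0, limma-voom 3.58.1), a replicate block, other marker sets and leaving out each library.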

Additional observations from a re-analysis of the deposited data

How the results depend on the processing

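Over all genes, leaving out each library gave 1342 to 2694 genes higher in the vestibule (2325 with all libraries) and 925 to 1863 higher in the cochlea (1711), the fewest in both without vestibule replicate 2. Without vestibule replicate 1 the first count was 1522, and without cochlea replicate 2 the second was 1035. With library sizes alone the share of calls higher in the vestibule was 68.8% against 57.6%, and the median of all genes was 0.13. Of the 7 genes, 1 to 4 were higher in the vestibule with each library left out. The count was 4 without cochlea replicate 3, where 2694 of all genes were higher in the vestibule. It was 1 without cochlea replicate 1 or 2 or vestibule replicate 1 or 2.

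Same-numbered libraries did not deviate together (r of deviations over genes -0.18, -0.26 and -0.47, and no library correlated best with its own number). Deviations from means of 3 libraries cannot show whether same-numbered libraries share a source, and the main fit used no replicate block. With the replicate block, 1609 of 14723 genes were higher in the vestibule and 1009 in the cochlea. Of the 7 genes, 1 was called, Ush1c, higher in the vestibule, and Whrn had 1.43 (adjusted p = 0.0987). Of the partners, 3 were higher in the vestibule and 0 in the cochlea.

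Ush1c was called in every alternative fit over all genes; other marker sets and prior counts gave differences with no call. Whrn was 1.17 to 1.84, Myo7a 0.32 to 0.88 and Pdzd7 0.68 to 1.32 with a library left out. Pdzd7 passed at 0.93 under DESeq2 and without a filter on low counts (0.93), and at 0.95 under edgeR's exact test. Without a library, Ush1g ranged from -0.073 to 0.35 over the 3 omissions in which it passed the filter and Clrn1 from -0.15 to 0.18, so both changed sign (Ush1g at -0.073 without cochlea replicate 1, Clrn1 at -0.15 without cochlea replicate 3 and -0.0072 without vestibule replicate 1). On the hair cell marker scale Ush1g was -0.29, Clrn1 -0.44 and Adgrv1 -0.66 (past the threshold), and Ush1g was -0.087 with the share of pairs on no feature as a covariate.

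Partners higher in the vestibule numbered 3 to 6 with a library left out and those higher in the cochlea 0 to 2, 1 with library sizes alone, upper-quartile scaling or the covariate. Hair cell markers higher in the vestibule numbered 5 to 8 (5 without cochlea replicate 1), and 4 were higher in the cochlea with the covariate. Without the filter 1 microvillar gene was higher in each tissue, and with filterByExpr 1 in the vestibule. Against Gfi1, Barhl1, Otof and Rbm24 alone, the differences were -0.49 for Myo7a, 1.30 for Ush1c, -0.95 for Ush1g, -1.29 for Adgrv1, 0.30 for Whrn (0.94 with all 15 markers), -1.04 for Clrn1 and -0.14 for Pdzd7. Against Myo6 and Pou4f3 alone they were 0.47 for Myo7a, 2.26 for Ush1c, 0.0095 for Ush1g (a change of sign), -0.33 for Adgrv1, 1.26 for Whrn, -0.085 for Clrn1 and 0.82 for Pdzd7. The cause of these changes was not tested.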
